A study of Mus musculus with 12 samples.

Results

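The glucocorticoid receptor, several of its response genes and a steroid-converting enzyme were described in epithelial cells of the mouse small intestine after experimental stroke. The genes were the receptor Nr3c1, its response genes Fkbp5, Tsc22d3, Sgk1 and Klf9, and Hsd11b2, an enzyme that removes active glucocorticoid. They were chosen by gene name, and all 6 were found among the 15855 genes of the table. RNA was sequenced from live EpCAM+ cells of C57BL6/J mice, sorted by flow cytometry at 24 h after the operation, from 7 sham-operated animals and 5 with stroke. The post-stroke mice had undergone permanent middle cerebral artery occlusion (pMCAO), in which a filament blocks an artery of the brain and is left in place. The sham-operated mice had the same anaesthesia and surgery without the block, so the comparison does not include unoperated animals. The methods describe adult male mice, and the labels name each library a separate biological replicate.

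Glucocorticoids are adrenal steroid hormones released under stress, and they enter cells and bind the receptor in the cytoplasm, where chaperones hold it ready. The bound receptor moves to the nucleus, pairs on DNA elements made of 2 facing copies of a short sequence, and switches on genes such as Fkbp5, Tsc22d3 and Per1. In the gut the hormone promotes enterocyte maturation and sodium uptake, and enterocytes can also make or destroy active steroid locally.

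Upstream DNA of the members was read from RefSeq promoter windows (GRCm38.p6) reaching from 250 bases before to 50 after each annotated start. Windows were held for 4 of the 6 members, 11 windows in all, and Nr3c1 and Hsd11b2 had none among those read. The full palindromic element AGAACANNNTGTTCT was found in 3 of 32851 windows of the genome (0.009132%), and 1 of these was a window of Sgk1. The 250 bases before 3 annotated starts are shown because they hold, in this order, the full element, a lone element arm and no arm. Capitals mark the arm AGAACA or its reverse complement TGTTCT, and in Sgk1 also the 3 bases between a facing pair.
Sgk1, chr10:21993640-21993889, plus strand: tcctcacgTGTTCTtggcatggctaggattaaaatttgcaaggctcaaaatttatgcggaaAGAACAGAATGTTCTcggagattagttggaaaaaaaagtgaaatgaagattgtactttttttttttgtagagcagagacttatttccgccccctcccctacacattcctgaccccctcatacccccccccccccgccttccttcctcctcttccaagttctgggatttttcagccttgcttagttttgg
Tsc22d3, chrX:140600523-140600772, minus strand: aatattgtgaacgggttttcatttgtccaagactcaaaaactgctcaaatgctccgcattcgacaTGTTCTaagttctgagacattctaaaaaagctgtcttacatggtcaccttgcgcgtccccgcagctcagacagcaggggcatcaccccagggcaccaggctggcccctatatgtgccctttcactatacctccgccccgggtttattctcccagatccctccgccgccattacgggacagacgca
Fkbp5, chr17:28486150-28486399, minus strand: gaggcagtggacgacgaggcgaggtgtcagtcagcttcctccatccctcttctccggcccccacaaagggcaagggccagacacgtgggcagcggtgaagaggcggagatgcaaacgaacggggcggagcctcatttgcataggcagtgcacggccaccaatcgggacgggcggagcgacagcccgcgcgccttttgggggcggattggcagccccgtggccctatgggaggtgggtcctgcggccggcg
The Sgk1 element, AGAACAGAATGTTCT, lay at chr10:21993701-21993715, from position -189 to -175 relative to that start. A single arm on either strand, which can be part of the full element, was found in 6233 of the 32851 windows (18.97%). It was found in 3 of 6 windows of Sgk1, 1 of 3 of Tsc22d3, and in none of the single windows of Fkbp5 and Klf9. A match is a match of letters only, and receptor binding was not measured in these samples. Of the 4 members with windows, only Sgk1 held the full element there.

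The libraries held between 7418730 and 31925579 counts over the 15855 genes. Levels are given as CPM, each gene's share of a library's counts, after TMM scaling, a scaling that sets the bulk of genes level between libraries. In both groups, the 4 libraries numbered 58 to 61 in the sample titles (sham replicates 1 to 3 and pMCAO replicate 1, called early here) stood apart from the 8 numbered 62 to 72 (called later). Early libraries had counts in 13386 to 14712 genes and later libraries in 15343 to 15766, and mitochondrial ribosomal RNA took 34.8% to 54.5% of counts in the early against 14.6% to 35.2% in the later libraries. Because early libraries were mostly sham, the members are given by early and later libraries as well as by group. Epithelial identity was present throughout, since the summed level of 9 epithelial markers ranged from 9048 to 13990 CPM in sham and from 9311 to 26122 CPM in pMCAO libraries. All 10 lymphocyte markers were also detected, at a summed 38.4 to 671 CPM in sham (median 160) and 66.3 to 470 CPM in pMCAO (median 142). The lymphocyte sum was lower in early libraries, at 38.4 to 148 CPM, than in most later libraries, at 119 to 671 CPM. The part of these cells in the members' levels was not tested, and in bulk RNA fewer cells of a type and less RNA per cell cannot be told apart.

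Per kilobase of exon, the members spanned a wide range in these cells. In sham libraries Sgk1 was the most abundant at 70.4 ± 39.7 CPM per kilobase (SD, n = 7). Nr3c1 followed at 10.8 ± 2.51 CPM per kilobase, and its libraries did not overlap those of Sgk1. Tsc22d3 at 3.05 ± 1.62 and Klf9 at 2.13 ± 1.31 CPM per kilobase overlapped each other but not Nr3c1. Fkbp5 at 0.780 ± 0.775 and Hsd11b2 at 0.518 ± 0.382 CPM per kilobase overlapped each other and both Klf9 and Tsc22d3. The order of the means was the same in pMCAO libraries (n = 5), at 86.7 ± 32.0 for Sgk1, 9.46 ± 2.01 for Nr3c1, 4.84 ± 1.36 for Tsc22d3, 2.26 ± 0.762 for Klf9, 1.89 ± 0.871 for Fkbp5 and 0.271 ± 0.223 CPM per kilobase for Hsd11b2. There Tsc22d3 again overlapped Klf9, and Klf9 overlapped Fkbp5, but the highest library of Hsd11b2 (0.622 CPM per kilobase) lay below the lowest of Fkbp5 (0.875 CPM per kilobase).

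The comparison of pMCAO with sham asked whether the genes of the glucocorticoid response changed in the gut epithelium after stroke. A gene was called where limma-voom gave an adjusted p (Benjamini-Hochberg, over all 14462 genes tested) no higher than 0.05 and a log2 fold change of 1 or more in either direction. None of the 6 members was called, and neither was any other gene (0%), so the absence of calls is no property of these 6. With a term for early and later libraries 0 members were called against 0.111% of all genes, and with 4 runs of library numbers 0 against 0.325%. All 6 members passed the filter on low counts, and 4 of them were detected in all 12 libraries, as were 79.4% of the genes tested. None of the members reached an unadjusted p under 0.05 either, against 8.43% of all genes. Fkbp5 and Tsc22d3 had the smallest p-values of the members and were the only members whose 5 pMCAO libraries all lay above the sham median. In all 6 members the groups overlapped, as they did in most genes, with 0.311% of all genes higher and 0.194% lower in pMCAO without overlap.

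**Figure D1:**
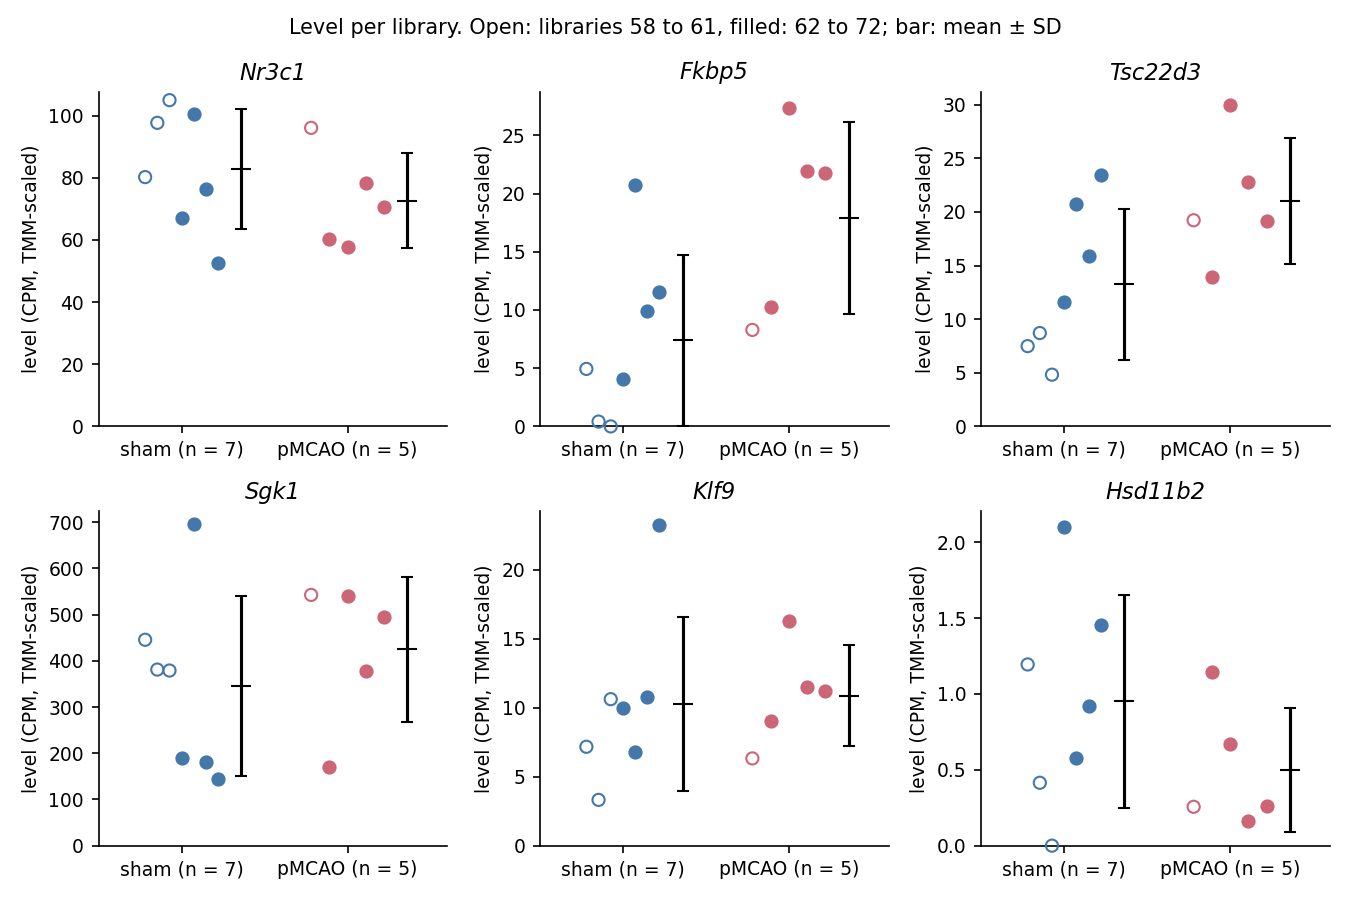
Level of each member (CPM, TMM-scaled, linear axis from 0) in each library, with sham in blue and pMCAO in red, open circles for the early and filled circles for the later libraries, and the mean with SD beside each group. In Fkbp5, 3 of 5 pMCAO libraries lie above the highest sham library, and the 2 lowest sham libraries are early ones.

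Nr3c1 encodes the receptor itself, on chromosome 18 (GRCm38, 39410545 to 39519421, minus strand). Its level in sham libraries was lowest at 52.5, median 80.2 and highest at 105 CPM. The 5 pMCAO libraries stood at 96.0, 60.4, 57.9, 78.3 and 70.7 CPM, all within the sham range. Receptor RNA was the steadiest of the members, with means of 82.7 ± 19.3 (SD, n = 7) and 72.7 ± 15.4 CPM (SD, n = 5). The log2 fold change of pMCAO over sham was -0.15 (SE 0.20), with an adjusted p of 0.854 in limma-voom. Its 95% interval of -0.59 to 0.28 spans folds from 0.666 to 1.21. The mineralocorticoid receptor Nr3c2, which binds the same hormone, was the only gene tested out of a list of 5 related steroid receptors, at 68.9 CPM in sham and 63.4 CPM in pMCAO (log2 fold change -0.09).

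Fkbp5 (chromosome 17, 28399094 to 28517527, minus strand) encodes a co-chaperone that lowers the receptor's affinity for hormone and is itself induced by the receptor. Among sham libraries the 3 early ones held 4.94, 0.415 and 0 CPM, and the 4 later ones held 4.08, 20.8, 9.94 and 11.6 CPM. The early pMCAO library held 8.29 CPM, and the 4 later ones held 10.2, 27.3, 21.9 and 21.8 CPM. The 3 values of pMCAO replicates 3, 4 and 5 were above every sham library, while sham replicate 5 came close to them. The 0 in sham replicate 3 is a count of 0 in a shallow library, which allows a level of up to 0.724 CPM (3 counts). The means were 7.39 ± 7.34 CPM in sham (SD, n = 7) and 17.9 ± 8.24 CPM in pMCAO (SD, n = 5), 2.42-fold apart. The log2 fold change was 1.42 (SE 0.68, limma-voom adjusted p = 0.600), and its 95% interval ran from -0.02 to 2.85.

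The size of this difference depended on how the library numbers entered the fit. With a term for the library number itself, the log2 fold change of Fkbp5 was 1.67 (SE 0.51, limma-voom adjusted p = 0.0954). With a term for early and later libraries, it was 0.88 (SE 0.42, limma-voom adjusted p = 0.498). With a term for 4 runs of library numbers (58 to 61, 62 to 65, 66 to 68, and 72) it was 0.97 (SE 0.48, limma-voom adjusted p = 0.419). With that term 0 of the members reached an unadjusted p under 0.05 in the higher direction, against 6.58% of all genes. Within the 3 runs that held both groups the pMCAO mean was higher each time, by 3.71, 0.85 and 1.13 on the log2 scale. The first of these values rests on 1 pMCAO library and on sham libraries with 62, 2 and 0 counts.

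Tsc22d3 (chromosome X, 140539528 to 140600659, minus strand) encodes GILZ, a glucocorticoid-induced leucine zipper protein that restrains inflammatory signalling. The early sham libraries held 7.49, 8.71 and 4.83 CPM, and the later ones 11.6, 20.8, 15.9 and 23.5 CPM. The pMCAO libraries held 19.2 CPM in the early library and 14.0, 29.9, 22.8 and 19.2 CPM in the later ones. The early pMCAO library was thus above all 3 early sham libraries, whereas among later libraries the groups overlapped and only pMCAO replicate 3 exceeded every sham library. Means were 13.2 ± 7.01 CPM in sham (SD, n = 7) and 21.03 ± 5.89 CPM in pMCAO (SD, n = 5). The log2 fold change was 0.56 (SE 0.31, limma-voom adjusted p = 0.635), with a 95% interval from -0.10 to 1.23. It was 0.37 with the early and later term, and 1.48, 0.40 and 0.40 within the 3 runs.

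Fkbp5 and Tsc22d3 were higher in pMCAO in each of the 3 runs with both groups, which also held for 16.9% of all genes tested. Hsd11b2 was lower in each of the 3, as were 13.4% of all genes. The other 3 members changed direction between runs.

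Sgk1 (chromosome 10, 21882184 to 21999903, plus strand) encodes a kinase that prolongs the life of sodium channels and transporters at the cell surface, and it also answers to mineralocorticoid, cell volume and insulin signals. Its level in sham libraries was lowest at 144, median 379 and highest at 696 CPM. The pMCAO libraries held 543, 171, 540, 377 and 496 CPM. Of these 5, 3 lay above the sham median and 1 just below it, and pMCAO replicate 2 sat among the lowest sham libraries. Means were 345 ± 195 CPM (SD, n = 7) and 425 ± 157 CPM (SD, n = 5), and the log2 fold change was 0.39 (SE 0.39, limma-voom adjusted p = 0.791, 95% interval -0.42 to 1.21). The differences within the 3 runs were 0.44, -0.26 and 1.26 on the log2 scale, so their direction was not shared.

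Klf9 (chromosome 19, 23141226 to 23168134, plus strand) encodes a zinc finger transcription factor induced by glucocorticoid and thyroid hormone. Its level in sham libraries was lowest at 3.32, median 10.005 and highest at 23.2 CPM. The pMCAO libraries held 6.32, 9.05, 16.3, 11.5 and 11.2 CPM, around the middle of the sham range. Means were 10.3 ± 6.31 CPM (SD, n = 7) and 10.9 ± 3.67 CPM (SD, n = 5), and the log2 fold change was 0.17 (SE 0.34, limma-voom adjusted p = 0.907, 95% interval -0.54 to 0.89). The highest sham value came from sham replicate 7, which was alone in its run, and without it the log2 fold change was 0.40.

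Hsd11b2 (chromosome 8, 105518755 to 105523988, plus strand) encodes the enzyme that turns corticosterone into an inactive form and so keeps it from the receptors. It was the scarcest member, with 0 to 36 counts in sham and 2 to 49 counts in pMCAO libraries. Sham libraries ranged from 0 to 2.10 CPM with a median of 0.922, and the pMCAO libraries held 0.256, 1.15, 0.669, 0.160 and 0.264 CPM. Of the 5 pMCAO libraries, 4 lay below the sham median. Means were 0.952 ± 0.703 CPM (SD, n = 7) and 0.499 ± 0.411 CPM (SD, n = 5). At these counts a single library is imprecise, as in pMCAO replicate 4, whose 2 counts gave a 95% Wilson interval of 0.0439 to 0.584 CPM. The log2 fold change was -0.76 (SE 0.72, limma-voom adjusted p = 0.783), and its 95% interval of -2.28 to 0.76 leaves both a fall and a rise possible.

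**Figure D2:**
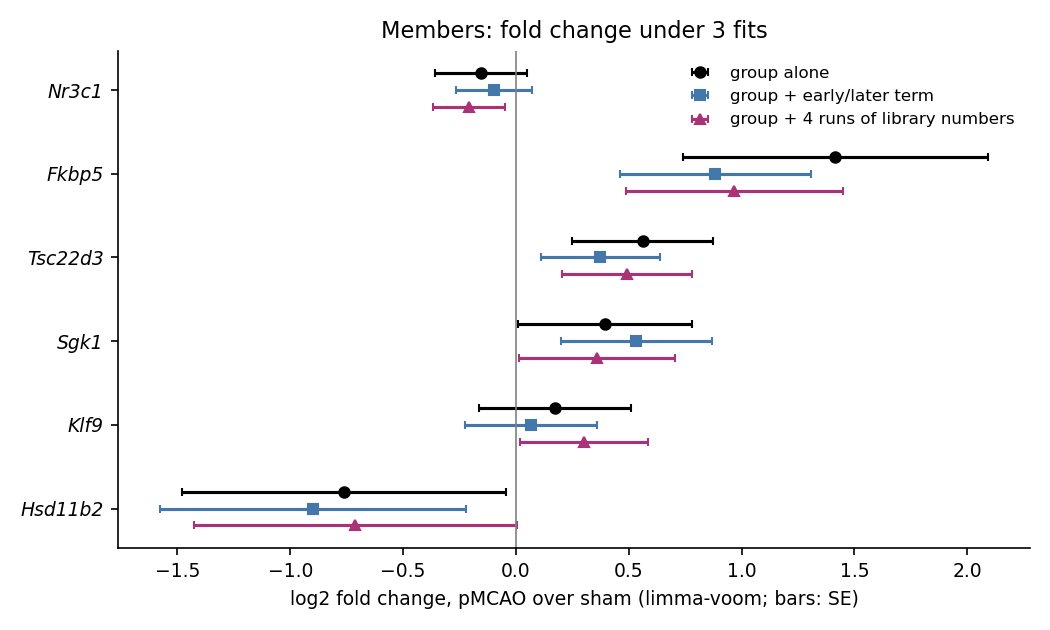
Log2 fold change of pMCAO over sham for each member, with bars of 1 SE, in limma-voom on the group alone (black circles), with the early and later term (blue squares) and with the 4 runs (purple triangles). Fkbp5 moves from 1.42 to 0.88 and 0.97, and the other members keep their side of 0 in all 3 fits.

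Later libraries were also compared with early ones, in a contrast fitted together with the group. The later minus early value on the log2 scale was 2.21 for Fkbp5 (limma-voom adjusted p = 0.115) and 0.77 for Tsc22d3 (limma-voom adjusted p = 0.175). Klf9 and Hsd11b2 had values of 0.82 and 0.98, and Nr3c1 and Sgk1 had values of -0.41 and -0.68, beside a median of 0.15 over all genes. None of the 6 was called in this contrast, against 11.7% of all genes tested in either direction and 8.39% in the higher one. Whether the stroke difference itself changed between early and later libraries was tested with an interaction term. No member was called, against 0.00691% of all genes, and none reached an unadjusted p under 0.05, against 5.80% of all genes. The smallest was that of Tsc22d3, whose difference was 1.22 lower in later libraries on the log2 scale (SE 0.71, limma-voom adjusted p = 0.858), with a lone early pMCAO library assumed to vary like the rest.

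Relations between members were examined over the 8 later libraries, 4 of each group, since the 4 early ones form a cluster of their own. Of 15 pairs, 4 had an exact permutation p under 0.05 and 0 passed Benjamini-Hochberg adjustment over the 15 pairs (smallest adjusted p = 0.0922). Fkbp5 and Tsc22d3 gave a Pearson r of 0.85 (n = 8, two-sided exact permutation p = 0.00846) and a Spearman rho of 0.81 (exact permutation p = 0.0218). Without the 2 libraries farthest from the median of Fkbp5, r was 0.59. Fkbp5 and Sgk1 gave r = 0.77 (n = 8, exact permutation p = 0.0246) and rho = 0.60 (exact permutation p = 0.132), with r = 0.91 after the same removal. Fkbp5 and Hsd11b2 gave a negative relation in these 8 libraries, with r = -0.80 (n = 8, exact permutation p = 0.0149), rho = -0.76 (exact permutation p = 0.0368) and r = -0.87 after the removal. Its low end in Hsd11b2 held 2 counts in pMCAO replicate 4 and 7 in pMCAO replicate 5, and the weight of such low counts was not tested. The relation of Nr3c1 and Klf9 (r = -0.79, n = 8, exact permutation p = 0.0215, rho = -0.55, exact permutation p = 0.171) rested on the 2 libraries farthest from the median, without which r was -0.27. These libraries pool both groups and depth was not held equal between them, so the group difference is part of each relation.

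**Figure D3:**
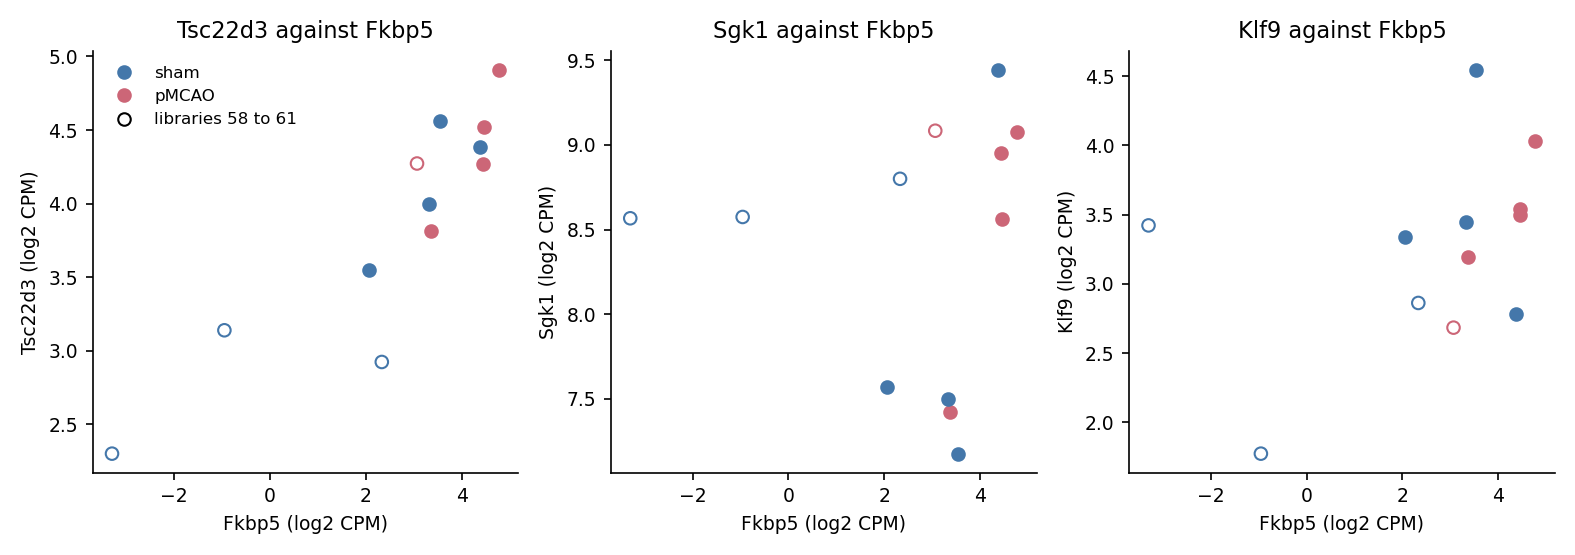
Level of Tsc22d3, Sgk1 and Klf9 against that of Fkbp5 (log2 CPM, prior count of 2, both axes logarithmic) in each library, with sham in blue, pMCAO in red and early libraries as open circles. Among the filled circles Tsc22d3 climbs with Fkbp5 (r = 0.85), whereas Klf9 does not (r = 0.09).

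As a description over all 12 libraries, each centred on the mean of early or of later libraries, Tsc22d3 ranked at place 228 of the 14461 other genes by its Pearson r with Fkbp5 (0.78), and Fkbp5 ranked at place 94 for Tsc22d3. On the same measure r was 0.46 for Fkbp5 with Sgk1 and 0.21 for Fkbp5 with Hsd11b2, the latter opposite in sign to the value over later libraries alone. The genes most alike to Fkbp5 were Noc2l, Pin4 and Coq7 (r of 0.95, 0.93 and 0.93). Those most alike to the receptor Nr3c1 were Ccrn4l, Cpeb4 and Per2 (r of 0.91, 0.91 and 0.90), of which Ccrn4l and Per2 are known for their daily rhythm. For Tsc22d3 they were the predicted genes Gm38140 and Gm37728 and the redox gene Txnl1. For Sgk1 they were Cyp2d22, the transcription factor Gata6 and the brush border phosphatase Alpi, for Klf9 Ddx24, Bola2 and Pla2g6, and for Hsd11b2 Polr2k, Slc6a9 and Tardbp. These are ranks among 14461 genes over 12 libraries, given with no test. Fkbp5 and Hsd11b2 each held 2 counts in sham replicate 2 and 0 in sham replicate 3, both early libraries. Values so near the floor enter the r, ranks and most alike genes of these members, and their weight was not tested.

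Other genes of the pathway were followed in lists, and none of their members was called in the limma-voom comparison of the groups. Of a further 26 genes known to be induced by glucocorticoid, 23 could be tested. In that list 5 had an unadjusted p under 0.05 and a higher level in pMCAO, and none was lower at that level, whereas 4.66% of all genes tested were higher and 3.77% lower. The list was chosen with earlier results of these data known, so these counts describe it and are no test of it. The fold changes lay above 0 in 14 genes and below it in 9, with a median of 0.18 on the log2 scale beside 0.06 over all genes. The 5 were Zbtb16, Angptl4, Txnip, Pdk4 and Ddit4.

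In 0.311% of all genes tested, every pMCAO library lay above every sham library. Txnip, which binds thioredoxin and limits glucose uptake, was the only gene of the list whose groups did not overlap. Its sham libraries ranged from 89.9 to 190 CPM with a median of 173, and the pMCAO libraries held 270, 249, 251, 228 and 205 CPM. The log2 fold change was 0.66 (SE 0.20, limma-voom adjusted p = 0.387). A looser element, GNACANNNTGTNC, was found in 156 of the 32851 windows (0.4749%), which belonged to 145 of 27025 genes (0.537%). Of the 21 genes of the list with sequence, 2 had a window that held it. These were Txnip, with GCACACCGTGTCC at chr3:96557785-96557797, and Mt1, with GGACATGATGTTC at chr8:94178995-94179007. Mt1 had a log2 fold change of -0.20 (SE 0.44), and the windows of Pdk4 and Ddit4 held no match. The part of either match in these levels was not tested. The Txnip match lay from -172 to -160 relative to its start.

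Angptl4 and Pdk4 favour the use of fat, the first as a secreted inhibitor of lipoprotein lipase and the second as a kinase that closes the entry of pyruvate into oxidation. Angptl4 ranged from 8.92 to 28.7 CPM in sham with a median of 17.5, and stood at 36.1, 16.3, 63.7, 75.0 and 78.0 CPM in the pMCAO libraries. Pdk4 ranged from 46.6 to 91.3 CPM in sham with a median of 63.7, and stood at 188, 40.6, 304, 174 and 113 CPM in the pMCAO libraries. In both genes 4 pMCAO libraries were above every sham library, and pMCAO replicate 2 was within the sham range in Angptl4 and below it in Pdk4. The log2 fold changes were 1.38 (SE 0.39, limma-voom adjusted p = 0.338) for Angptl4 and 1.06 (SE 0.37, limma-voom adjusted p = 0.453) for Pdk4. DESeq2, which called 0.470% of all genes and none of the 5 members it gave an adjusted p, called both. Fkbp5 and Tsc22d3 were also lower in pMCAO replicate 2 than in the other 3 later pMCAO libraries.

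Zbtb16 encodes the transcription factor PLZF, a strongly induced glucocorticoid target that is also made by innate-like lymphocytes. It had 0, 0, 0, 0, 63, 1 and 5 counts in sham replicates 1 to 7, and 54, 25, 105, 59 and 133 counts in pMCAO replicates 1 to 5. Sham replicate 5, the sham library with the most Zbtb16, was also the one with the most Fkbp5 and Sgk1. On the CPM scale the means were 0.576 ± 1.36 in sham (SD, n = 7) and 3.47 ± 1.92 in pMCAO (SD, n = 5). The log2 fold change was 3.96 (SE 1.18, limma-voom adjusted p = 0.350), and edgeR gave 2.44. Zbtb16 passed the filter on low counts through its pMCAO libraries, where it was high. Its place among the genes tested was thus not independent of the group difference. A term for library number called Zbtb16, along with 1.08% of all genes and none of the members. In pMCAO replicates 1 to 5 the summed lymphocyte markers were 66.3, 470, 299, 119 and 142 CPM. In sham replicates 5 and 7 they were 160 and 671 CPM, and the part of lymphocytes in the Zbtb16 values was not tested.

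Ddit4, an inhibitor of the growth kinase mTORC1, had a log2 fold change of 0.62 (SE 0.28, limma-voom adjusted p = 0.577). Other members of the list did not reach this level. They included the clock gene Per1 at 0.52 (SE 0.26), the phosphatase gene Dusp1 at -0.34 (SE 0.29), and Cebpd at -0.35 (SE 0.66), which were named after their values were seen as early responders to the hormone. With the early and later term 7 of the 23 genes were higher and none lower at an unadjusted p under 0.05, against 5.43% and 4.60% of all genes. Per1 (0.55, SE 0.25), Errfi1 and Mt2 were among these 7, and Ddit4 (0.56, SE 0.27) was not. Ddit4 did not reach that level with the 4 runs, in edgeR or in DESeq2 either.

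**Figure D4:**
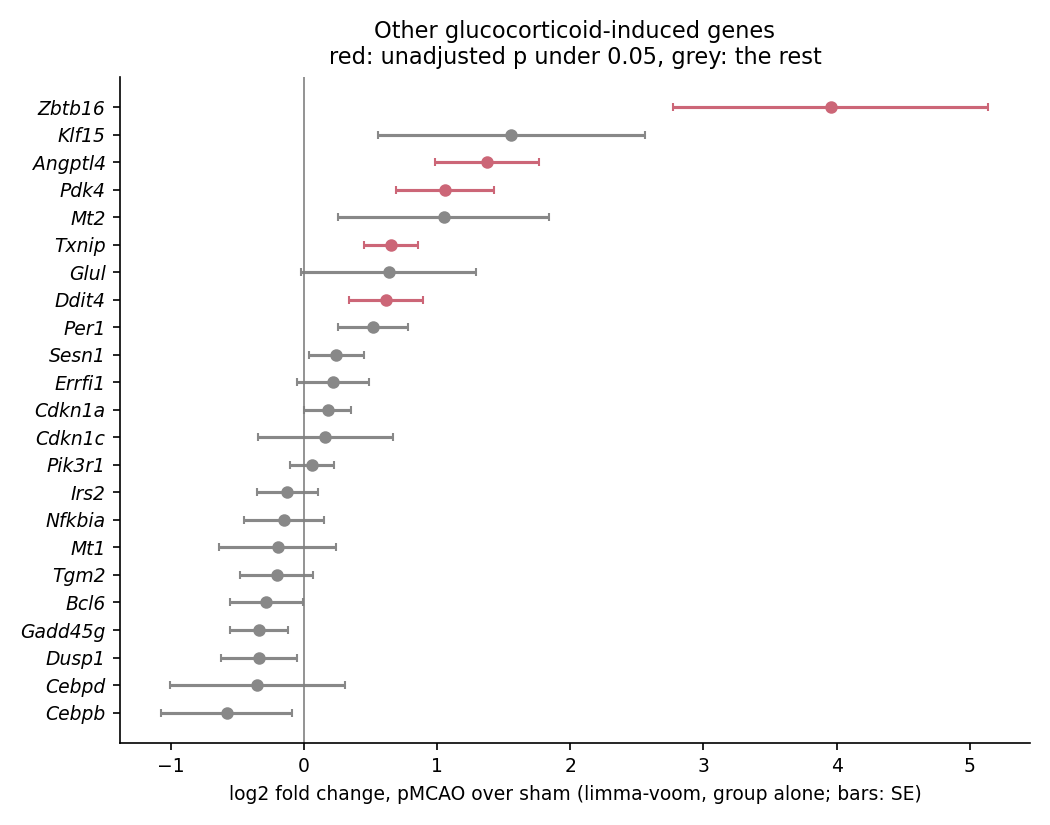
Log2 fold change of pMCAO over sham with bars of 1 SE (limma-voom, group alone) for the 23 tested genes of the list of other glucocorticoid-induced genes, sorted by size, with those at an unadjusted p under 0.05 in red. All 5 red genes lie above 0, from 0.62 for Ddit4 to 3.96 for Zbtb16, which passed the filter on low counts through its pMCAO libraries.

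Among targets of Sgk1 and of the mineralocorticoid receptor, Atp1b1, a beta subunit of an ion pump, ranged from 206 to 549.6 CPM in sham with a median of 296, and stood at 313, 349, 349, 675 and 669 CPM in the pMCAO libraries. Its log2 fold change was 0.59 (SE 0.28, limma-voom adjusted p = 0.592), and the groups overlapped. It was 0.39 with the early and later term and 0.26 with the 4 runs, and later libraries were 0.72 higher than early ones (limma-voom adjusted p = 0.0286). In the epithelial list, the enterocyte genes Fabp2 and Fabp1, which carry fatty acids, had log2 fold changes of 0.92 (SE 0.38, limma-voom adjusted p = 0.532) and 1.00 (SE 0.47, limma-voom adjusted p = 0.589). They were the only 2 of its 9 genes at an unadjusted p under 0.05, and 4.66% of all genes were higher at that level. Without pMCAO replicate 1, whose Fabp2 level of 13339 CPM was the highest of all, the log2 fold change of Fabp2 was 0.54, and in later libraries alone it was 0.14. Fabp1 was 0.64 with the early and later term, 0.48 with the 4 runs, 0.32 in later libraries alone and 0.61 in edgeR.

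The chaperones that hold the receptor ready were all tested, 13 of 13. Their median log2 fold change was -0.15, beside 0.06 over all genes. On the group alone 1 was lower at an unadjusted p under 0.05 and none higher, against 3.77% and 4.66% of all genes. That gene was Hsp90aa1, the inducible HSP90, at 86.6 ± 12.9 CPM in sham (SD, n = 7) and 58.5 ± 6.71 CPM in pMCAO (SD, n = 5). For Hsp90aa1 the log2 fold change was -0.55 (SE 0.16, limma-voom adjusted p = 0.350), and its highest pMCAO library, at 66.9 CPM, was above its lowest sham library, at 63.8 CPM. With the early and later term 4 of the 13 chaperones were lower at an unadjusted p under 0.05 and none higher. Of all genes 4.60% were lower and 5.43% higher at that level in that fit. Of 10 coregulators, the coactivator Ncoa1 was higher (0.37, SE 0.16, limma-voom adjusted p = 0.571) and the corepressor Nrip1 lower (-0.60, SE 0.27, limma-voom adjusted p = 0.575) at that level on the group alone. With the early and later term Ncoa1 was 0.36 and Nrip1 -0.40, and with the 4 runs they were 0.28 and -0.49. The later minus early value of Nrip1 was -0.87 (limma-voom adjusted p = 0.00157).

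Among genes of steroid synthesis and conversion, 8 of 14 could be tested and 1 was higher at an unadjusted p under 0.05, against 4.66% of all genes. It was H6pd, which supplies the cofactor for the enzyme that regenerates active glucocorticoid, with a log2 fold change of 1.07 (SE 0.48, limma-voom adjusted p = 0.583). H6pd was 0.71 with the early and later term and 0.45 with the 4 runs, and it did not reach that level in these fits or in edgeR. Hsd11b1, that regenerating enzyme, was in the table but had 0 counts in 7 of the 12 libraries and was not tested. Of 11 inflammatory genes that glucocorticoids repress, 5 could be tested, and none reached an unadjusted p under 0.05 in limma-voom on the group alone. With the early and later term 1 was lower at that level, against 4.60% of all genes. It was Ptgs2 (-1.72, SE 0.62, and -1.72 with the 4 runs), a scarce gene with medians of 2.39 CPM in sham and 1.89 CPM in pMCAO. In DESeq2 1 of the 5 was higher at that level. The median log2 fold change of the 5 was 0.28 in limma-voom and -1.20 in edgeR, so no direction is given. Of 16 paralogues of the members 1 was lower at an unadjusted p under 0.05 on the group alone, against 3.77% of all genes. It was Tsc22d1 (-0.52, SE 0.16, limma-voom adjusted p = 0.380), which had differences of -0.35, -0.48 and -0.60 within the 3 runs. None of the 10 lymphocyte, 6 myeloid, 3 stromal and endothelial or 3 erythroid markers tested reached an unadjusted p under 0.05 in limma-voom, whereas 1 myeloid and 2 erythroid markers were lower at that level in both edgeR and DESeq2. The median log2 fold changes in limma-voom were 0.72, 0.35, 0.60 and -1.04, and those in edgeR were 0.06, -0.40, 0.15 and -1.88, so the myeloid direction turned. The summed erythroid level was highest in sham replicate 3, at 25.1 CPM.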

How the data were processed

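RNA of sorted small-intestinal epithelial cells from 7 sham and 5 pMCAO samples was analysed. Per the submitters' processing notes and the methods, the authors used STAR for alignment to GRCm38, featureCounts for gene counts and limma-voom for the group test, with a batch correction for collection day. The use of strand in counting is not given in the sources used here. The deposited counts were whole reads per gene, already filtered on low expression, and the deposited CPM columns were these counts scaled to the table's total. The deposited log2 fold change, average expression, p-value and FDR columns hold the authors' own comparison and were not used. There were 0 unmatched sample columns.

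Genes were kept by filterByExpr (minimum count of 10), leaving 14462 genes, scaled by TMM and fitted in R 4.3.3 by limma-voom (limma 3.58.1, with edgeR 4.0.16 for scaling), with group as the single term since the labels give no day. DESeq2 1.42.0 and edgeR's quasi-likelihood test were alternatives. Log2 CPM used a prior count of 2. Library numbers come from the sample titles. The early and later division and the 4 runs were taken from an earlier analysis of these data that used the authors' deposited fit, and whether a run is a collection day is not known. Sham replicate 7 is alone in its run and adds nothing to the group difference in that fit. The scripts were tested on simulated data.

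Members, gene lists and alternatives were chosen with earlier results of these data known. Values of 1 gene of a list, and that list's counts, are not reported here. All members are named, with up to 5 genes of each list at an unadjusted p under 0.05 and the 3 genes most like each member. A few further list genes are named where a fit with the early and later term changed which genes reached that level. P-values measure the spread between these samples, and Wilson intervals (95%) and floors of 3 counts cover counting error only. Exon lengths came from GENCODE M21 and correlations were tested over all 40320 orders of the 8 later libraries (scipy 1.17.1).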

Additional observations from a re-analysis of the deposited data

Results flagged for a closer look

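Klf9 in sham replicate 7 stood at 23.2 CPM, well above the other 6 sham libraries, of which the next highest held 10.8 CPM. The gap to the nearest library was a larger share of the group's range than Dixon's 95% limit allows. It was the only such value among 12 groups of members examined, and chance gives such a value in about 5% of groups. The library was numbered 72, alone in its run, and it also had the highest lymphocyte marker sum (671 CPM) and myeloid marker sum (74.7 CPM), whose part in the Klf9 value was not tested. No member's stroke difference differed between early and later libraries at an unadjusted p under 0.05 in limma-voom.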

How the results depend on the processing

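No member was called under the alternatives that gave it an adjusted p, or when any single library was left out. Hsd11b2 had no adjusted p in either DESeq2 fit and was not among the genes tested with the replicate block. Of the recomputed fold changes of the members, 157 of 161 kept their direction and, like the main values, were not called. Some still crossed 1 in size, such as Fkbp5 at 0.79 in later libraries alone and Hsd11b2 at -1.23 without pMCAO replicate 2. The 4 that turned direction were all small. Nr3c1 became 0.10 with library totals alone, a scaling that moved the median of all genes from 0.06 to 0.35. Klf9 became -0.030 without pMCAO replicate 3, and -0.10 in edgeR and -0.12 in DESeq2 with the early and later term, 2 alternatives added after seeing the data. The cause was not tested. Fkbp5 ranged from 0.79 (later libraries alone) to 2.40 (limma-trend), with unadjusted p-values from 0.00431 (a term for library number) to 0.157 and adjusted p-values from 0.0954 to 0.802. With single libraries left out it ranged from 1.06 to 1.80, Tsc22d3 from 0.40 to 0.72, Sgk1 from 0.22 to 0.66, Klf9 from -0.03 to 0.40, Nr3c1 from -0.26 to -0.08 and Hsd11b2 from -1.23 to -0.55. Over all genes the number called was 0 in limma-voom and in edgeR (1219 and 930 at an unadjusted p under 0.05), 68 in DESeq2, 1 in limma-trend, 3 with library totals alone, 18 with sample quality weights, 16 with the early and later term, 47 with the 4 runs and 156 with a term for library number. Of the list genes named here, DESeq2 called Angptl4 and Pdk4 with and without the early and later term, the term for library number called Zbtb16, and the replicate block called Angptl4, Fabp1 and Fabp2. DESeq2 gave Zbtb16 no adjusted p.

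The replicate numbers do not pair the samples, since same-numbered libraries correlated between -0.24 and 0.40 and 2 of 5 correlated best with their own number. With the replicate number as a block 259 of 13644 genes were called and 0 of the 5 members tested.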
